A study of Mus musculus with 60 samples.

Results

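The genes described here encode the proteins of the cytosolic ribosome. They were taken by name: protein-coding genes whose symbol is Rpl or Rps followed by a number, with an optional a, l or x, together with Rpsa, Rplp0, Rplp1 and Rplp2. Rpl10a was set aside because its protein carries the tag used for the pulldown. This gave 79 of the 55414 genes in the deposited table, of which 45 belong to the large subunit, 31 to the small subunit and 3 to the stalk. Of the 83 symbols that matched the pattern, Rps4l, Rpl32l and Rpl6l are typed as pseudogenes in the table and were left out.

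The tissue was medial prefrontal cortex (mPFC), taken from mice of the inbred strain DBA2/J in a series built on 5 days of social defeat. The labels name 5 groups, SA, SA:ANH, ANH, RES and NS, without explaining the names or saying which of them were stressed. Each group has 6 IP libraries, from an anti-GFP pulldown labelled aPVT projector, and 6 Input libraries of bulk mPFC taken with no antibody, which makes 60 libraries. The pulldown takes ribosomes that carry the tagged protein L10a, so an IP library holds RNA bound to ribosomes of tagged cells. The labels state neither age nor sex, nor what drives the tag. Whether the libraries of 1 group are from different animals is not stated in the labels, so each p-value measures only the spread between these libraries. Totals were 19078906 to 27073413 counts per library, and most members were deeply covered, with 7946 to 17442 counts for Rpl41 against 48 to 186 for Rpl29. Libraries were amplified without molecular identifiers, so counts are not independent molecules.

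A cytosolic ribosome joins a small subunit, which reads the messenger RNA, to a large subunit, which forms the peptide bond. The stalk proteins sit on the large subunit and recruit the elongation factors. Messenger RNAs of ribosomal proteins typically begin with a run of pyrimidines at the 5′ end (the TOP motif), through which mTOR and Larp1 control their translation together. In neurons, ribosomal protein messages are known in cell bodies and in processes alike.

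The start of the transcript is where that motif lies, so 30 bases around the RefSeq start (assembly GRCm38.p6, 15 bases on each side, read 5′ to 3′ on the gene's strand) are shown for 8 members. They are the 4 with the largest and the 4 with the smallest rise in SA against NS in IP, among 48 tested members with a single entry in the table (Rps14 and Rpl17 were not considered). Capitals mark the longest run of C and T in the window. The first 4 rose most and the last 4 rose least.
Rps27: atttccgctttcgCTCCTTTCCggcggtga
Rpl10: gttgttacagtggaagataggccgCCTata
Rps23: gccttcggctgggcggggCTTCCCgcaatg
Rpl39: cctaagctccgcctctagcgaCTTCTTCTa
Rplp2: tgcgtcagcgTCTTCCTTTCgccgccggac
Rps9: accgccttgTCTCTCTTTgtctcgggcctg
Rpl4: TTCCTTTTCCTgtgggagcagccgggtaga
Rplp0: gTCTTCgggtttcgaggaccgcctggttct

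These windows lie at chr3:90213634-90213663 (minus strand) for Rps27, chrX:74270801-74270830 (plus) for Rpl10, chr13:90923107-90923136 (plus) for Rps23 and chrX:37085208-37085237 (minus) for Rpl39. Those of the smallest rises lie at chr7:141447636-141447665 for Rplp2, chr7:3704026-3704055 for Rps9, chr9:64173372-64173401 for Rpl4 and chr5:115559452-115559481 for Rplp0, all on the plus strand. Each window holds bases upstream of the annotated start as well as the first bases of the transcript. Only the latter belong to its 5′ untranslated region as annotated. The longest runs of Rpl4 and Rplp0 lay wholly upstream of the start, so they are not part of the annotated transcript. The longest run was 9 bases in Rps27 and 3 in Rpl10, the pair that rose most as deposited, and 11 in Rpl4 and 5 in Rplp0, the pair that rose least. With its pseudogene copies added, the Rpl10 rise was 0.46 in place of 1.004. In all, 59 of the 79 members matched the RefSeq promoter table, 57 of them tested, with 68 entries. A run of at least 8 bases of C or T stood in 27 of these 68 windows (39.7%). It stood in 12.003% of the windows of all 32851 entries. These windows include ones with the run upstream of the start, as in Rpl4, so they are not a count of TOP motifs. Members with such a run had a median log2 fold change of 0.53 in SA against NS in IP (26 genes), and those without it 0.60 (31 genes). The letters CGGAAG, searched on both strands of the 300-base promoter, stood in 43 of the 68 member entries (63.2%) and in 16.9% of all entries. A match is a run of letters in an annotated window, not a measured start or a bound site.

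In the pulldown, ribosomal protein messages made up the largest share of counts in SA:ANH and SA, an intermediate share in RES, and the smallest in ANH and NS. The 79 genes held 0.827 ± 0.0594% of the counts of NS IP libraries (mean ± SD, n = 6; range 0.719% to 0.895%). They held 0.824 ± 0.0364% in ANH IP and 0.976 ± 0.0568% in RES IP. The share was 1.18 ± 0.0412% in SA IP, with a range of 1.13% to 1.22%, and 1.27 ± 0.0801% in SA:ANH IP, with a range of 1.19% to 1.42%. No SA or SA:ANH library was as low as any library of the other 3 groups, while the NS and ANH ranges overlapped. In Input the share lay between 0.978 ± 0.0389% in ANH and 1.04 ± 0.0646% in RES, with 0.994 ± 0.0251% in NS, 1.04 ± 0.0338% in SA and 1.03 ± 0.0539% in SA:ANH. The shares are a description and were not tested. In bulk RNA, fewer cells of a type and less of a message per cell cannot be told apart.

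**Figure D1:**
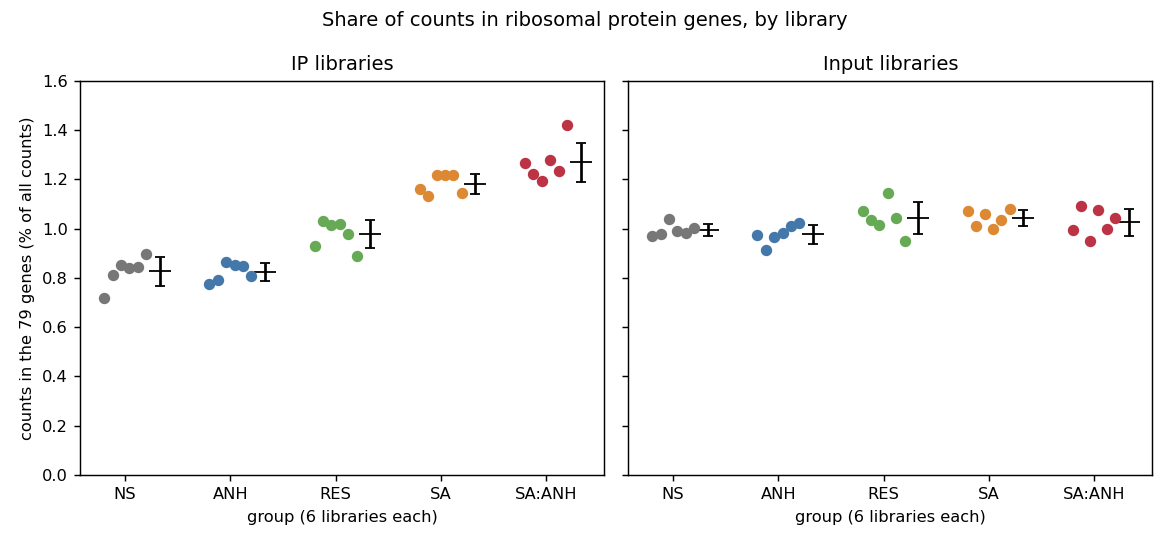
Percent of all counts held by the 79 ribosomal protein genes in each library (1 point per library), for the 5 groups, IP on the left and Input on the right; the black line is the mean of 6. In IP, SA and SA:ANH libraries lie between 1.13% and 1.42%, and no library of NS, ANH or RES is above 1.03%.

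Of the 79 members, 77 had enough counts to be tested in IP, in Input and in both together. Rpl10l, a copy used in testis, had 0 counts in every library. Rpl39l, another testis paralogue, had 104 counts in all, 54 in IP and 50 in Input, spread over 28 libraries. Below, a gene is said to have risen or fallen if its adjusted p was under 0.05, from the quasi-likelihood test of edgeR, adjusted by Benjamini and Hochberg's method over all genes tested in that fraction. A fold change is log2 with its standard error, and a level is given in CPM, the count after scaling each library to the same size by TMM. All comparisons with NS share the NS libraries, so they are not independent of each other.

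In SA against NS in IP, 74 of the 77 members rose and none fell, with a median log2 fold change of 0.56. Of all 16670 genes tested in IP, 9.39% rose in that comparison, and their median was 0.02. All 31 small-subunit members rose (median 0.56), as did 40 of 43 large-subunit members (median 0.60) and all 3 stalk members (median 0.35). The members that did not pass were Rpl22 (0.07 ± 0.09, adjusted p = 0.640), Rpl29 (0.50 ± 0.21, adjusted p = 0.0961) and Rpl3l (0.19 ± 0.76, adjusted p = 0.911). For 72 members every SA library was above every NS library, which held for 5.15% of all genes tested. The 5 members whose libraries overlapped were Rpl29, Rps9, Rplp0, Rpl3l and Rpl22. All 74 calls held in every alternative fit of the full set of libraries, and 73 held in every refit that left out 1 library.

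In SA:ANH against NS in IP, 76 of 77 members rose and none fell, where 11.3% of all genes tested rose. The median was 0.66 over members and 0.01 over all genes tested. All 31 small-subunit members (median 0.64), 42 of 43 large-subunit members (median 0.68) and all 3 stalk members (median 0.50) rose. The member that did not pass was Rpl3l, at -1.41 ± 0.80 (adjusted p = 0.243). Every SA:ANH library was above every NS library for 75 members, with Rpl29 and Rpl3l as the exceptions, against 6.71% of all genes tested.

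In RES against NS in IP the rise was smaller and reached fewer members. There 36 of 77 rose and none fell, where 2.25% of all genes tested rose, and the median was 0.23 against 0.01. The 36 were 23 of the 43 large-subunit members and 13 of the 31 small-subunit members, with 0 of the 3 stalk members. All 77 fitted fold changes were above 0. RES and NS libraries did not overlap for 14 members, among them Rps27, Rps19, Rps23, Rpl13 and Rpl3, where 1.6% of all genes tested had RES wholly above NS. The count depended on the NS library labelled replicate 1, which had the lowest NS share (0.719%). Without it 22 members rose, and the same 22 rose in every refit that left out 1 library.

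In ANH against NS in IP, 1 member fell and none rose, where 4.37% of all genes tested fell. It was Rpl31, a large-subunit protein near the exit of the peptide tunnel, at -0.24 ± 0.08 (adjusted p = 0.0471), with a mean of 55.05 CPM in ANH and 64.98 in NS. The 6 ANH libraries (49.5 to 61.9 CPM) overlapped the 6 NS libraries (56.8 to 73.6 CPM). The call was lost when any 1 of most IP libraries was left out. It held without SA replicate 1, SA:ANH replicate 3 or 6, ANH replicate 3 or 4, or RES replicate 2 or 6, and without NS replicate 1 there were 4 calls. The median over members was -0.04, against 0.00 over all genes tested.

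**Figure D2:**
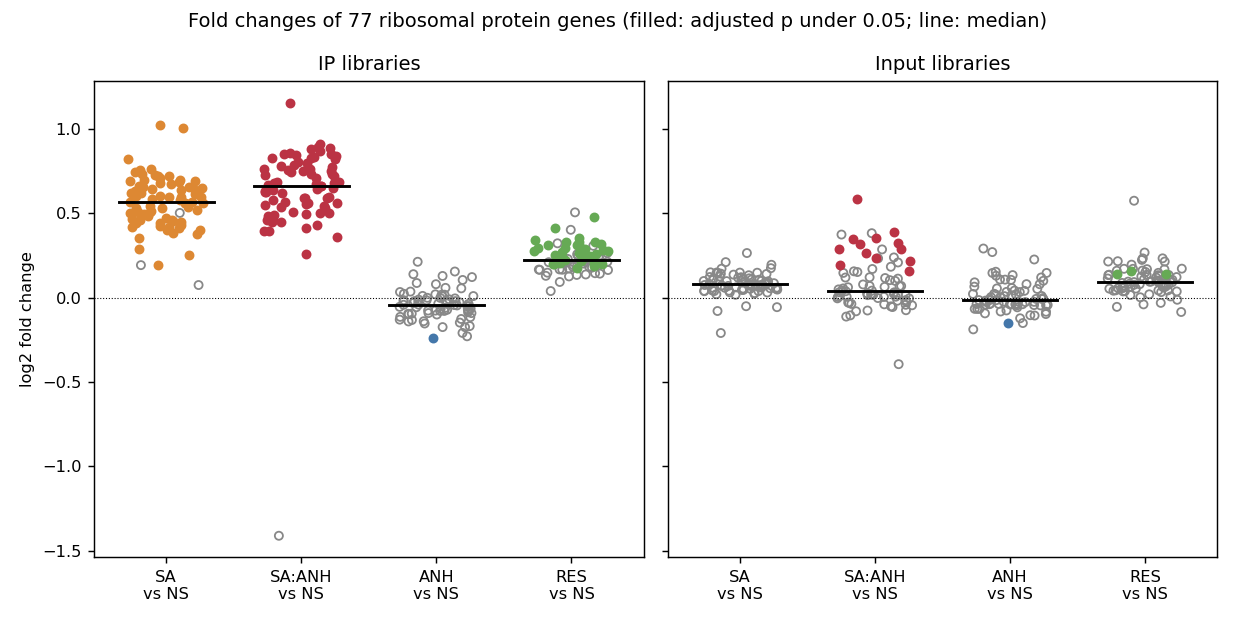
Log2 fold change against NS of the 77 tested genes (1 point per gene) in SA, SA:ANH, ANH and RES, IP on the left and Input on the right; filled points have an adjusted p under 0.05 and the line is the median. In IP the medians are 0.56, 0.66, -0.04 and 0.23 in that order, while the Input medians lie between -0.02 and 0.09.

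Among small-subunit proteins, Rps27, a zinc-binding protein, rose most. Its 6 NS IP libraries had 42.9, 46.3 and 51.4 CPM (lowest, median and highest), and the ANH libraries 46.4, 48.9 and 52.8 CPM. The RES libraries had 59.7, 65.99 and 69.1 CPM, the SA libraries 85.2, 97.9 and 103 CPM, and the SA:ANH libraries 81.2, 105 and 126 CPM. So each RES library was above each NS and ANH library, and each SA and SA:ANH library was above each RES library. The log2 fold change from NS was 1.02 ± 0.07 in SA (adjusted p = 8.48e-13), 1.15 ± 0.07 in SA:ANH (adjusted p = 3.53e-14) and 0.48 ± 0.07 in RES (adjusted p = 3.65e-05). In ANH it was 0.08 ± 0.07 (adjusted p = 0.614). In Input the 30 libraries lay between 65.1 and 102 CPM with all groups overlapping.

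Rps23, which lies beside the decoding centre, showed the same order as deposited. Its pseudogene copies held 47.3% of the counts of gene and copies together. Its NS IP libraries had 57.6, 66.1 and 70.5 CPM, the RES libraries 73.8, 83.4 and 92.9 CPM, and the SA libraries 98.7, 115 and 127 CPM. SA:ANH had 108, 122 and 135 CPM, and ANH 63.3, 65.1 and 71.3 CPM. Each RES library was above each NS and ANH library and below each SA and SA:ANH library. It rose by 0.82 ± 0.06 in SA, 0.91 ± 0.06 in SA:ANH and 0.35 ± 0.06 in RES (adjusted p = 0.000462). In ANH the difference was 0.01 ± 0.06 (adjusted p = 0.971).

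Rps19, a subunit protein whose loss causes Diamond-Blackfan anaemia, rose by 0.72 ± 0.06 in SA, 0.89 ± 0.06 in SA:ANH and 0.41 ± 0.06 in RES. Its NS IP libraries had 119, 157 and 173 CPM, against 227, 256 and 270 CPM in SA and 267, 278 and 323 CPM in SA:ANH. No SA or SA:ANH library overlapped NS. Rps29, a small zinc-binding protein, rose by 0.68 ± 0.09 in SA and 0.85 ± 0.09 in SA:ANH, and was at 0.23 ± 0.09 in RES (adjusted p = 0.147). Rps6, the substrate of S6 kinase, rose by 0.54 ± 0.06 in SA and 0.59 ± 0.06 in SA:ANH, with 0.21 ± 0.06 in RES (adjusted p = 0.0534) and -0.12 ± 0.06 in ANH (adjusted p = 0.3201). Rps6 libraries had 164, 190 and 203 CPM in NS IP and 223, 280 and 309 CPM in SA IP, with no overlap. Rpsa, also known as the laminin receptor, rose by 0.45 ± 0.06 in SA and 0.48 ± 0.06 in SA:ANH, with 0.18 ± 0.06 in RES (adjusted p = 0.0823). Pseudogene copies held 38.9% of the counts of gene and copies together for Rps6 and 70.5% for Rpsa. The smallest rise of this subunit in SA was that of Rps9, at 0.29 ± 0.06 (adjusted p = 0.000535), with overlapping libraries at 158 to 230 CPM in NS and 227 to 262 CPM in SA.

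Rps27l, a paralogue of Rps27 known as a p53 target, moved less than Rps27. It rose by 0.42 ± 0.09 in SA (adjusted p = 0.00112) and 0.36 ± 0.09 in SA:ANH (adjusted p = 0.00375). It was at 0.16 ± 0.09 in RES (adjusted p = 0.395) and -0.23 ± 0.09 in ANH (adjusted p = 0.132). Levels were 17.0, 19.7 and 20.6 CPM in NS IP and 21.6, 25.8 and 29.3 CPM in SA IP, so these groups did not overlap.

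Among large-subunit proteins Rpl10, which joins the subunit late in its assembly, had the largest fold change in SA. Its NS IP libraries had 35.3, 36.6 and 43.9 CPM, and SA had 57.9, 76.5 and 97.9 CPM. SA:ANH had 53.9, 71.2 and 78.4 CPM, RES 37.5, 49.97 and 66.7 CPM, and ANH 30.04, 45.4 and 47.4 CPM. SA and SA:ANH lay above NS without overlap, and RES overlapped NS, ANH, SA and SA:ANH. The rise was 1.004 ± 0.12 in SA (adjusted p = 2.09e-07) and 0.84 ± 0.12 in SA:ANH, and RES was at 0.40 ± 0.12 (adjusted p = 0.0591). Most reads of the Rpl10 family were assigned to its pseudogene copies (72.8%), and with these added the SA rise was 0.46 and the SA:ANH rise 0.52.

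Rpl39, a small protein that lines the peptide tunnel, rose by 0.76 ± 0.10 in SA and 0.88 ± 0.10 in SA:ANH, with 0.31 ± 0.10 in RES (adjusted p = 0.0812). Rpl13 rose by 0.68 ± 0.06 in SA, 0.80 ± 0.06 in SA:ANH and 0.34 ± 0.06 in RES (adjusted p = 0.000216). Its libraries had 206, 239 and 248 CPM in NS IP, 268, 295 and 324 CPM in RES and 299.9, 382 and 407 CPM in SA, so RES and SA were wholly above NS. Rpl3, a protein close to the peptidyl transferase centre, rose by 0.66 ± 0.07 in SA, 0.63 ± 0.07 in SA:ANH and 0.33 ± 0.07 in RES (adjusted p = 0.00220). Rpl31, which fell in ANH, rose by 0.70 ± 0.08 in SA and 0.79 ± 0.08 in SA:ANH. These values are as deposited. Pseudogene copies held 74.8% of the counts of gene and copies together for Rpl3 and 35.7% for Rpl31. Rpl5, which with Rpl11 and 5S RNA forms a particle that binds Mdm2, rose by 0.75 ± 0.11 in SA and 0.66 ± 0.11 in SA:ANH.

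The smallest rise of a large-subunit member in SA was that of Rpl4, at 0.25 ± 0.05 (adjusted p = 0.000101). Its NS IP libraries had 411, 446 and 479 CPM and its SA IP libraries 482, 528 and 568 CPM, so the groups did not overlap. It rose by 0.39 ± 0.05 in SA:ANH and by 0.19 ± 0.05 in RES (adjusted p = 0.00969). Rpl22 did not pass in SA, where its libraries (46.4, 52.4 and 62.3 CPM) overlapped those of NS (45.7, 49.3 and 54.4 CPM). In SA:ANH it had 59.2, 63.3 and 81.4 CPM, all above NS, and rose by 0.43 ± 0.08 (adjusted p = 0.000252). Its paralogue Rpl22l1, which is outside the naming rule, rose in SA by 0.55 ± 0.10 and in SA:ANH by 0.57 ± 0.10. Rpl3l, a paralogue of Rpl3 known from muscle, had 0 to 43 counts per library and a standard error of 0.76 in SA. Rpl29 had 2.48 to 5.65 CPM in NS IP and rose in SA:ANH (0.66 ± 0.21, adjusted p = 0.0186).

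The stalk had the smallest medians of the 3 parts of the ribosome. Rplp0, which anchors the stalk, had NS IP libraries at 117, 127 and 137 CPM, SA at 132, 148 and 155 CPM, and SA:ANH at 138, 152 and 167 CPM. SA overlapped NS, and SA:ANH lay wholly above it. It rose by 0.19 ± 0.05 in SA (adjusted p = 0.00839) and 0.26 ± 0.05 in SA:ANH (adjusted p = 0.000404), the smallest rise of a member that passed in either comparison. Rplp1 rose by 0.43 ± 0.06 and 0.56 ± 0.06, and Rplp2 by 0.35 ± 0.05 and 0.50 ± 0.05, in SA and SA:ANH. In RES these 3 were at 0.04 ± 0.05, 0.19 ± 0.06 and 0.14 ± 0.05, and none passed. No test set the stalk against the other subunits.

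**Figure D3:**
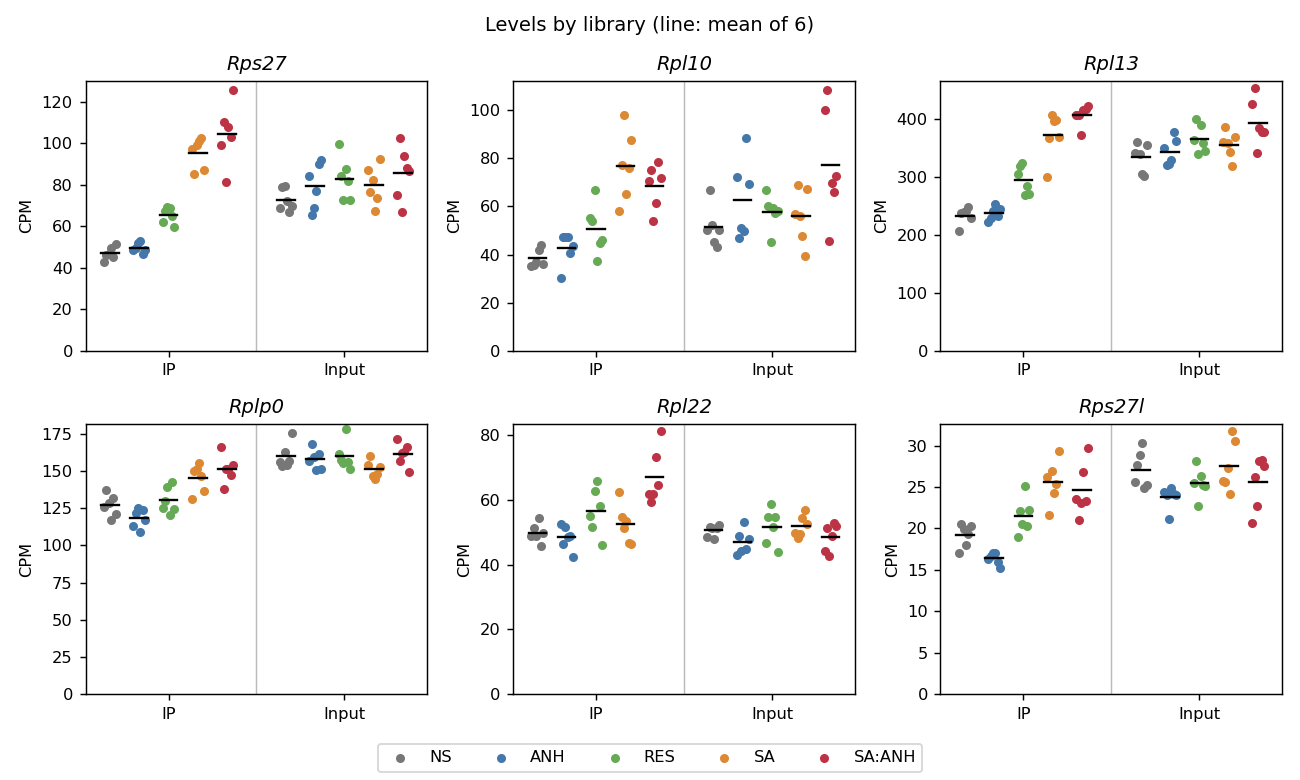
CPM in each library (1 point per library, line at the mean of 6) for selected members, with IP libraries on the left of each panel and Input libraries on the right, coloured by group. Rps27 in IP runs from 42.9 to 51.4 CPM in NS to 81.2 to 126 CPM in SA:ANH, while its Input libraries overlap between groups.

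The order of the group means in IP was nearly the same for all members. SA:ANH was highest, SA next, RES the third, and NS and ANH lowest in 63 of 77. SA:ANH had the highest mean for 65 members, SA the next for 65, and RES the third for 74. ANH was lowest for 57 members and NS for 19. In Input the top of the order was mixed, with the highest mean in SA:ANH for 27 members, RES for 26 and SA for 24. The bottom was again ANH (lowest for 40 members) and NS (lowest for 32), and neither was highest for any. Tested for any difference among the 5 groups, 75 of 77 members passed in IP (33.1% of all genes tested) and 12 in Input (12.9% of all genes tested).

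**Figure D4:**
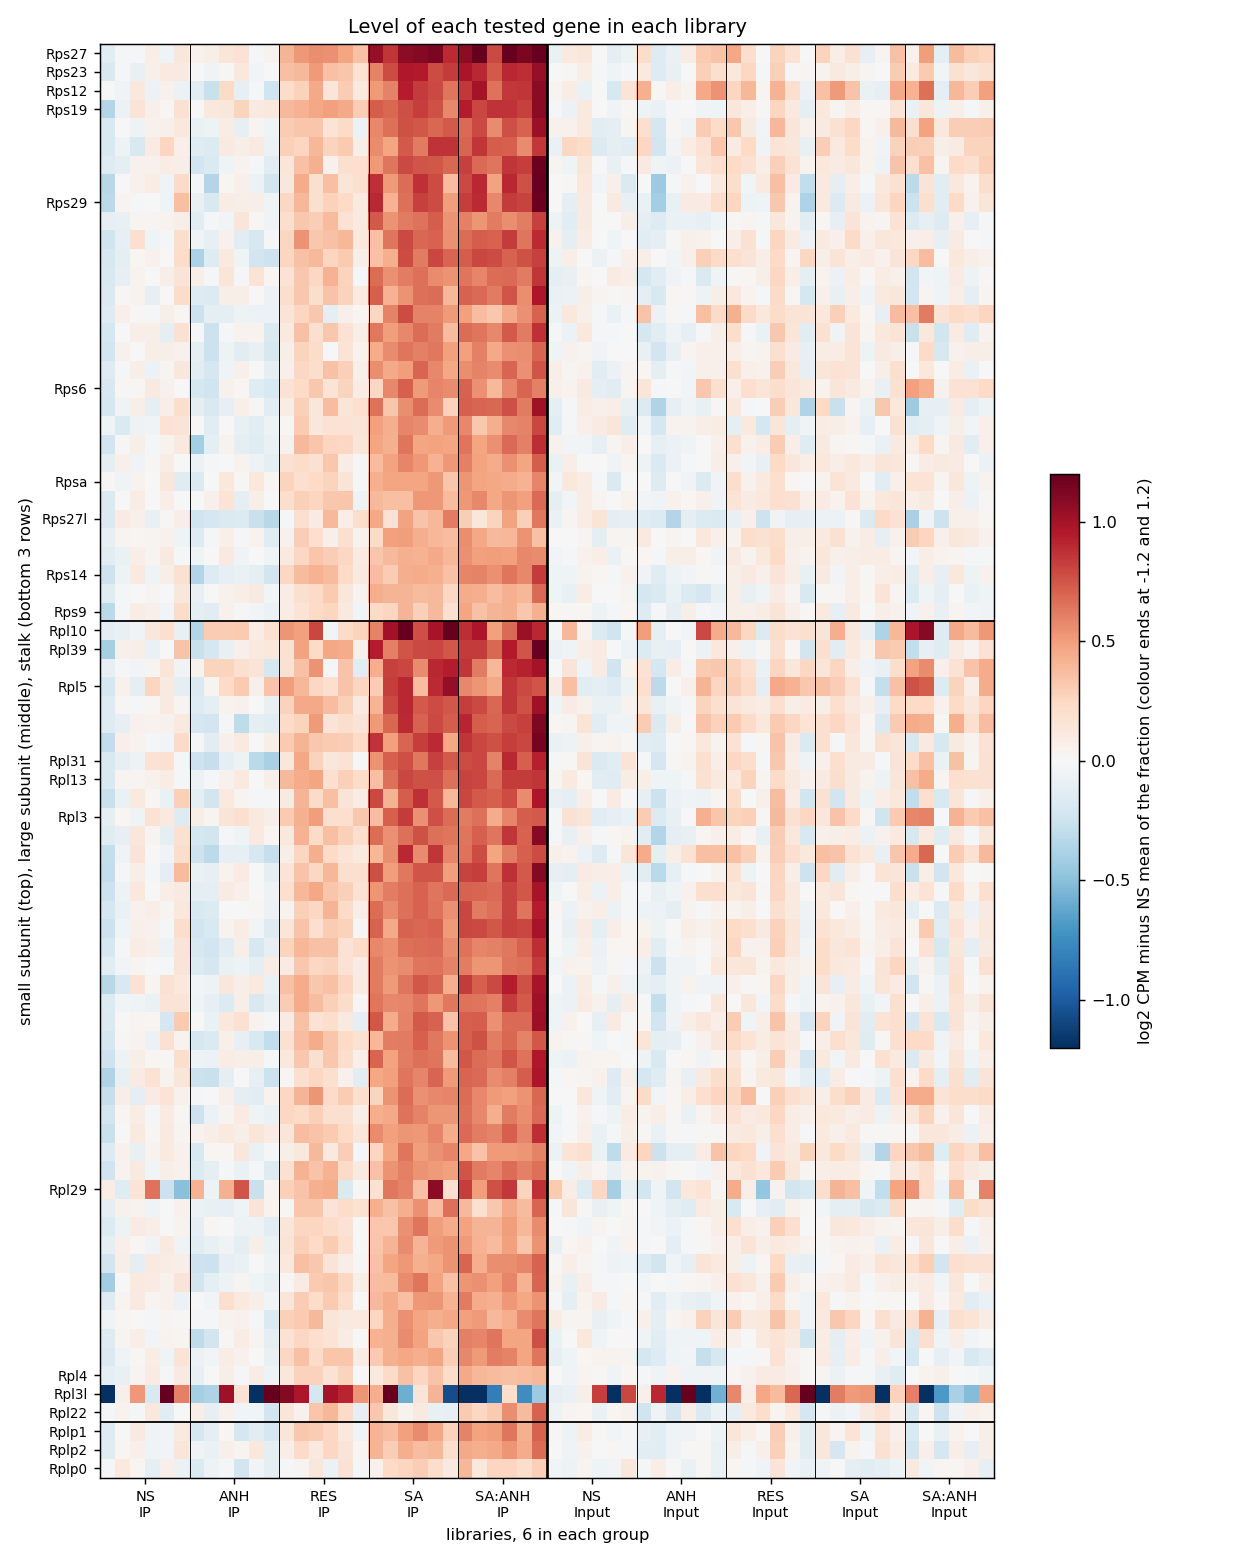
Level of each of the 77 tested genes (rows, by subunit, with some genes named) in each library (columns, 6 per group, IP then Input), as log2(CPM + 0.1) minus the mean of the NS libraries of the same fraction. SA and SA:ANH IP columns are shifted upwards in nearly every row and RES IP columns less so, while Input columns show no shift of that size.

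Neighbours in that order were also compared directly in IP. Against RES, 69 members rose in SA (6.83% of all genes tested; median 0.33), led by Rpl10 at 0.60 ± 0.12 and Rps27 at 0.55 ± 0.07. The 8 that did not pass included Rpl22 (-0.11 ± 0.09, adjusted p = 0.503), Rps9, Rps14 and Rpl4. In SA:ANH against RES, 74 rose (8.21% of all genes tested; median 0.42), led by Rps27 at 0.68 ± 0.07 and Rps12 at 0.63 ± 0.09. In ANH against RES, 63 fell (5.43% of all genes tested; median -0.27), with Rps14 at -0.47 ± 0.06 (adjusted p = 1.23e-06). Against ANH, 74 members rose in SA (12.8% of all genes tested; median 0.61) and 75 in SA:ANH (10.8% of all genes tested; median 0.70). Rps27 led both, at 0.94 ± 0.07 and 1.08 ± 0.07, and Rpl31 followed at 0.94 ± 0.08 and 1.03 ± 0.08.

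In the direct comparison of SA:ANH with SA in IP few members differed. In SA:ANH 7 members were higher than in SA and none lower, with 4.89% of all genes tested higher and a member median of 0.11. They were Rpl22 (0.35 ± 0.09, adjusted p = 0.00423), Rps14 (0.25 ± 0.06, adjusted p = 0.00460), Rps21 (0.24 ± 0.08), Rpl32 (0.23 ± 0.07), Rpl13a (0.17 ± 0.05), Rpl4 (0.14 ± 0.05) and Rps3 (0.13 ± 0.04). Rps14 had 331, 352 and 365 CPM in SA IP and 392, 403 and 478 CPM in SA:ANH IP, with no overlap. Leaving out 1 library changed this count. It was 2 without SA:ANH replicate 4 or 6, 3 without SA:ANH replicate 1 or 3 or SA replicate 1, 2 or 6, and 4 without SA replicate 3.

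In Input few members differed. In SA against NS none passed (2.83% of all genes tested passed in either direction) by edgeR, DESeq2 or limma voom, and 11 had an unadjusted p under 0.05. The median was 0.08 and 73 of the 77 fitted values were above 0. In RES against NS, 3 rose (1.96% of all genes tested), among them Rpl14 (0.16 ± 0.04, adjusted p = 0.0176) and Rpl6 (0.14 ± 0.04, adjusted p = 0.0484). In ANH against NS, 1 member fell, where 1.05% of all genes tested fell. Against RES in Input, 1 member fell in SA (Rpl4, -0.11 ± 0.03, adjusted p = 0.0325; 0.66% of all genes tested). None passed in SA:ANH against RES by edgeR, DESeq2 or limma voom (0.693% of all genes tested passed), and 7 had an unadjusted p under 0.05. In ANH against RES 5 fell (1.73% of all genes tested), among them Rpl14, Rpl6 and Rpl13a, the last by 0.19 ± 0.04 on the log2 scale. These small counts moved when 1 library was left out. For RES against NS the count was 0 without RES Input replicate 4 or NS Input replicate 5 and 6 without RES Input replicate 6. For ANH against RES it was 1 without ANH Input replicate 2 or RES Input replicate 4 and 15 without RES Input replicate 6.

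In SA:ANH against NS in Input 13 members rose and none fell, where 2.54% of all genes tested rose. Among them were Rpl10 (0.59 ± 0.16, adjusted p = 0.0226), Rpl3 (0.39 ± 0.10, adjusted p = 0.0146), Rpl12 (0.35 ± 0.10), Rpl27 (0.35 ± 0.09), Rpl17 (0.33 ± 0.08), Rps13 (0.31 ± 0.08) and Rpl7a (0.29 ± 0.07). Others were Rps6 (0.26 ± 0.06, adjusted p = 0.00872), Rpl13 (0.24 ± 0.06), Rps27a (0.22 ± 0.06), Rpl9 (0.19 ± 0.05) and Rps2 (0.16 ± 0.05). Rpl10 had 43.2, 50.3 and 66.9 CPM in NS Input and 45.7, 71.2 and 108 CPM in SA:ANH Input, so the groups overlapped. The median over members was 0.04. Without SA:ANH Input replicate 2 the count was 3, and it was 7 without SA:ANH Input replicate 1 or NS Input replicate 5 and 8 without NS Input replicate 4.

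Ribosomal protein genes have many near-identical processed pseudogenes, and reads can be split between a gene and its copies. The table names 315 such copies (symbols ending in -ps) for 61 of the 79 members. For 27 tested members more than 10% of the counts of gene and copies together were in the copies, with 85.7% for Rps18, 74.8% for Rpl3, 72.8% for Rpl10 and 70.5% for Rpsa. Rps12 (48.5%) and Rps23 (47.3%) were also among the 27. The levels of these genes are therefore uncertain. In SA:ANH Input, 38 of the 107 copies tested fell against NS and none rose, with a median of -0.62. Over all genes tested there the median was 0.00 and 2.54% rose, and the share that fell is not given here. The 13 members that rose there included 10 of the 27 with more than 10% in copies and 3 of the other 50. With each gene and its copies summed, 5 rose, among them Rpl12 (0.35), Rpl13 (0.23), Rps2 (0.14) and Rpl3 (0.10). Rpl10 was then at -0.01 (adjusted p = 0.872), Rps6 at -0.01 (adjusted p = 0.922), Rps27a at -0.04 (adjusted p = 0.757) and Rpl9 at -0.04 (adjusted p = 0.663). Rps13 was at -0.04 (adjusted p = 0.675) and Rpl17 at -0.02 (adjusted p = 0.904).

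In IP the members still rose when gene and copies were summed. The number of members that rose was then 74 in SA, 76 in SA:ANH and 39 in RES, with medians of 0.50, 0.63 and 0.21. Before summing, 48 of the 50 members with at most 10% in copies rose in SA IP (median 0.57), as did 26 of the 27 others (median 0.56). Of the 98 copies tested in IP, 13 rose and 3 fell in SA (median -0.04), and 20 rose in SA:ANH (median 0.24). Of all genes tested in IP, 9.39% rose in SA and 11.3% in SA:ANH.

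**Figure D5:**
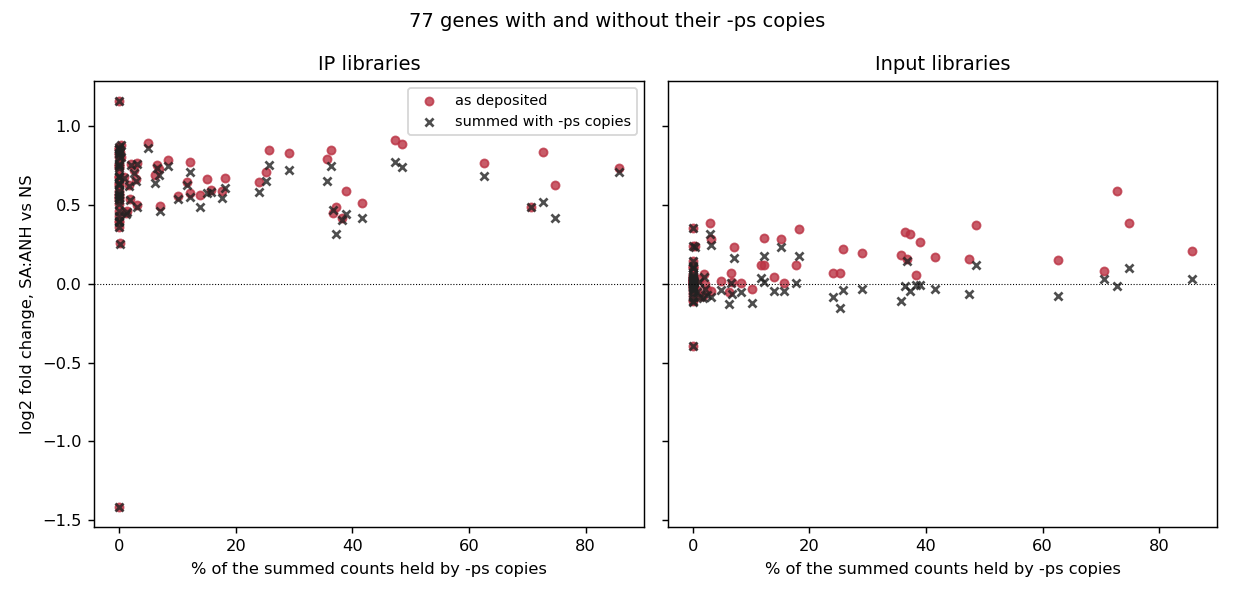
Log2 fold change in SA:ANH against NS for the 77 tested genes, set against the percent of the summed counts held by their -ps copies, as deposited and after summing, IP on the left and Input on the right. In Input the genes with more than 10% in copies have a median of 0.17 as deposited and -0.01 after summing; in IP nearly all genes stay well above 0 either way.

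The differences from NS were then tested between the fractions, in a fit of all 60 libraries. In SA the difference was larger in IP than in Input for 72 of 77 members and smaller for none (4.49% of all genes tested larger; median 0.45). Rps27 led at 0.86 ± 0.12 (adjusted p = 6.08e-07), then Rpl10 at 0.86 ± 0.22 (adjusted p = 0.00547) and Rps23 at 0.70 ± 0.09 (adjusted p = 8.97e-08). The 5 that did not pass were Rps12 (0.44, adjusted p = 0.0548), Rpl28 (0.24, adjusted p = 0.0838), Rpl29, Rpl3l and Rpl22 (0.01, adjusted p = 0.977). In SA:ANH it was larger in IP for 68 members (7.14% of all genes tested; median 0.55), led by Rps27 (0.89), Rpl39 (0.88) and Rps19 (0.85). The 9 that did not pass included Rpl10 (0.22, adjusted p = 0.569), Rpl3 (0.21, adjusted p = 0.289) and Rps13 (0.15, adjusted p = 0.443), which were among those that rose in SA:ANH Input. In RES it was larger for 2 members (1.41% of all genes tested): Rps19 (0.32 ± 0.08, adjusted p = 0.00957) and Rpl13a (0.23 ± 0.07, adjusted p = 0.0444). In ANH it was lower for 1 (1.85% of all genes tested), Rpl27, at -0.43 ± 0.13 (adjusted p = 0.0456).

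Across the 77 members, the log2 fold change in IP had a Pearson correlation of 0.59 with that in Input for SA, 0.45 for SA:ANH, 0.49 for RES and 0.09 for ANH. The Spearman correlations were 0.60, 0.26, 0.33 and -0.01. Over the 16329 genes tested in both fractions the Pearson values were 0.16, 0.12, 0.12 and 0.05, and the Spearman values 0.14, 0.07, 0.12 and 0.04. These are descriptions across genes, which share libraries and are not independent replicates. Within groups, members also varied together from library to library. The median correlation between pairs of members, taken on deviations from the group mean, was 0.49 in IP and 0.43 in Input. With gene length, the fold change of members in IP had a Pearson correlation of -0.10 and a Spearman correlation of -0.09 in SA, and of -0.13 and -0.23 in SA:ANH. Over all 13852 protein-coding genes tested the values were -0.09 and -0.18 in SA, and -0.14 and -0.22 in SA:ANH.

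Averaged over the 5 groups and as deposited, members were higher and lower in IP than in bulk tissue in similar numbers, but the groups differed. The share of counts described above was lower in IP than in Input in NS, ANH and RES, and higher in SA and SA:ANH. In IP against Input 28 members were higher (32.8% of all genes tested) and 24 lower (42.6% of all genes tested). The median was -0.01 over members and -0.08 over all genes tested. Of the 27 members with more than 10% in -ps copies, 13 were higher and 3 lower. Of the other 50, 15 were higher and 21 lower. With each gene and its copies summed, 19 members were higher and 36 lower, with a median of -0.06. As deposited, Rpl5 was the most raised at 0.45, followed by Rps12 at 0.38 and Rpl15 at 0.38. Copies held 48.5% of the summed counts for Rps12 and 38.2% for Rpl15. Rpl32 was the lowest at -0.59, followed by Rpl13a at -0.38. Per kilobase of the length given in the table, Rpl41, the shortest ribosomal protein, had the highest level, with a mean of 592 CPM per kilobase in NS IP and 626 in NS Input. Rplp1 had 367 and 467 CPM per kilobase, and Rpl19 346 and 329.

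Rpl10a, whose protein carries the tag, did not follow the family. It was not a member and stood 2.28 higher (log2) in IP than in Input. In IP it was at 0.03 ± 0.05 in SA against NS (adjusted p = 0.785), rose by 0.22 ± 0.05 in SA:ANH (adjusted p = 0.00193) and by 0.39 ± 0.05 in RES (adjusted p = 5.22e-06). Its CPM lay between 346 and 378 in NS IP and between 445 and 504 in RES IP, without overlap.

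Other proteins of the translation machinery that fall outside the naming rule also rose. Of 8 such genes, 6 rose in SA IP and 7 in SA:ANH IP, with medians of 0.49 and 0.55. Fau, which fuses a ubiquitin-like protein to a small-subunit protein, rose by 0.58 ± 0.06 and 0.67 ± 0.06. Rps3a1 rose by 0.52 ± 0.05 and 0.74 ± 0.05, and Rack1, a scaffold on the small subunit, by 0.31 ± 0.06 and 0.33 ± 0.06. Rpl7l1 was at -0.03 ± 0.08 and 0.02 ± 0.08 and did not pass.

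Messages of other genes with a TOP motif, mostly elongation and initiation factors, had smaller medians. Of 26, 17 rose in SA IP (median 0.23), 16 in SA:ANH IP (median 0.26) and 3 in RES IP (median 0.09). Eef1a1, the elongation factor that delivers transfer RNA, rose by 0.30 ± 0.03 in SA, 0.33 ± 0.03 in SA:ANH and 0.19 ± 0.03 in RES. Eef1g rose by 0.38 ± 0.05 in SA and Naca by 0.41 ± 0.06. Gas5, a non-coding host of small nucleolar RNAs that also has a TOP motif, rose by 0.81 ± 0.07 in SA, 0.78 ± 0.07 in SA:ANH and 0.33 ± 0.08 in RES (adjusted p = 0.00662), and 2 of the 6 hosts rose in SA.

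For comparison with the lists that follow, 1566 of all 16670 genes tested rose and 1200 fell in SA IP, and 1879 rose and 1409 fell in SA:ANH IP. Of 56 ribosome biogenesis genes, 8 rose and 5 fell in SA IP (median 0.04), and 10 rose and 3 fell in SA:ANH IP (median 0.03). Nsa2 rose by 0.49 ± 0.10 and Nop10 by 0.29 ± 0.06 in SA, whereas Noc2l was at -0.25 ± 0.05 and Ubtf, a factor for ribosomal RNA transcription, at -0.24 ± 0.05, both lower. Of 32 genes of the mTOR, S6 kinase and Larp group, 4 rose and 2 fell in SA IP (median 0.04). Rragd fell by 0.38 ± 0.05 on the log2 scale, and Lamtor2 rose by 0.31 ± 0.06. No test set these lists against the members or against all genes.

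Several other measures also differed between NS and SA or SA:ANH in IP, and their part in the member changes was not tested. RES is given for only some of them, and ANH for none. Of 503 other protein-coding genes of at most 1000 bases, 232 rose and 6 fell in SA IP (median 0.27), and 266 rose and 8 fell in SA:ANH IP (median 0.33). The mean gene length, weighted by counts, was 3510 bases in SA IP and 3485 in SA:ANH IP, against 3597 in NS IP. Mitochondrial ribosomal protein genes rose in 52 of 78 cases in SA IP (median 0.21) and 46 in SA:ANH IP (median 0.22), with 0 of 78 in RES IP. Nuclear genes of oxidative phosphorylation rose in 64 of 78 cases in SA IP (median 0.28), with 0 of 78 in RES IP. Mitochondrially encoded RNA made up 0.0432% of counts in SA IP, 0.0301% in SA:ANH IP and 0.0202% in NS IP, and 13 of its 15 genes rose in SA. Nuclear non-coding RNAs such as Malat1 made up 0.166% of counts in SA IP, 0.0941% in SA:ANH IP and 0.0622% in NS IP.

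Markers of other cells were low in every IP group but differed between groups. All 20 oligodendrocyte, 19 astrocyte, 20 microglial and 20 vascular markers were lower in IP than in Input. Higher in IP were 10 of 15 layer 5 and 12 of 14 excitatory neuron markers. Of all genes tested, 42.6% passed as lower in IP and 32.8% as higher. Oligodendrocyte markers summed to 0.0300% to 0.0340% of counts in NS IP, 0.0241% to 0.0262% in SA IP and 0.0188% to 0.0216% in SA:ANH IP. In RES IP they summed to 0.115% to 0.124% and in ANH IP to 0.0793% to 0.0829%, and no marker of that list is at 0 throughout. Of 14 layer 5 markers, 5 rose and 3 fell in SA IP, while none rose and 11 fell in SA:ANH IP (median -0.64). Blood markers summed to 0.00433% in SA IP, 0.00465% in SA:ANH IP and 0.00183% in NS IP. The part of these cells in the member changes was not tested.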

How the data were processed

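RNA was sequenced in 60 libraries, 6 per group in each fraction. Per the labels' protocols, frozen mPFC was used, IP samples were taken with an antibody against GFP, and libraries were made with SMART-Seq v4 and TruSeq kits. The unit deposited by the authors is the expected count, an estimate for each gene that can be a fraction. It was read from the values, 88.4% of which were whole. Trimmomatic 0.32, TopHat2 2.0.13, Bowtie2 2.2.3 and mm10 are listed in the submitters' processing notes. How reads were counted, the strand setting and the handling of reads matching several genes are not stated in these sources. Positions in the table differ from those of RefSeq GRCm38 and were not used.

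Columns were matched to samples by their names, with 0 left unmatched. Expected counts were rounded and genes kept by filterByExpr with a minimum count of 10, which left 16670 genes in IP, 18170 in Input and 18937 in both. Each fraction's 30 libraries entered 1 fit with 5 groups in edgeR 4.0.16 (R 4.3.3), with TMM scaling, the quasi-likelihood test and Benjamini-Hochberg adjustment at 0.05 over all genes tested. A fit of all 60 libraries tested IP against Input and the differences between fractions. Common biological variation between libraries (coefficient) was 23.7% for IP, 18.6% for Input and 22.2% for both. The test was tested on simulated data, with 50 genes raised in SA at each of several sizes. At log2 sizes of 0.3, 0.6 and 1 it recovered 2%, 36% and 96% in IP. For the difference between fractions it recovered 0%, 4% and 60%. Of unchanged genes it called 0.019% in IP and 0.022% between fractions. The simulation gave every gene the same spread and drew genes independently. Members differ in spread and vary together, so these are not recovery rates for members. Alternatives were RLE factors, DESeq2 1.42.0, limma voom (limma 3.58.1), no filter, TMM factors from genes other than members, members summed with their -ps copies, the 12 libraries compared alone and the replicate number as a block. Leaving out each library in turn was added after the data were seen. Libraries of a group differed by more than sampling noise in all 150 pairs.

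The members and lists were chosen with earlier results of these data known. Named in each comparison were the members with the 3 largest and 3 smallest changes among those that passed, those nearest to passing, and Rps27, Rps27l, Rpsa, Rps6, Rps29, Rpl3, Rpl13, Rpl39, Rplp0, Rplp1 and Rplp2. From each list up to 4 genes with the smallest p were named. Some members and genes are not reported here. Sequences are from RefSeq (GRCm38.p6).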

Additional observations from a re-analysis of the deposited data

Results flagged for a closer look

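In groups of 6 libraries, 5 of 120 groups of values had a highest or lowest library farther from the rest than Dixon's limit allows, where chance gives about 5%. Rpl13 was at 299.9 CPM in SA IP replicate 1, against 368 to 407 CPM in the other 5, and at 373 CPM in SA:ANH IP replicate 3, against 407 to 423 CPM. The member share was 1.42% in SA:ANH IP replicate 6, against 1.19% to 1.28% in the others. Without that library 76 members still rose in SA:ANH against NS in IP, with a median of 0.62. Rplp2 was at 233 CPM in SA:ANH IP replicate 6, against 199 to 211 CPM. Rps27l was at 21.1 CPM in ANH Input replicate 3, against 24.0 to 24.9 CPM.

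The difference from NS was itself tested between IP and Input by edgeR's quasi-likelihood test. It differed for 72 members in SA, 68 in SA:ANH, 1 in ANH and 2 in RES.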

How the results depend on the processing

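In IP, the members that rose in SA numbered 73 to 75 and in SA:ANH 75 to 76 whichever library was left out, and 74 of 74 and 75 of 76 calls held in every alternative. For RES 27 of 36 calls held, and counts were 31 to 51. With members summed with their -ps copies, the share of counts rose from 1.02% to 1.203% in IP and from 1.02% to 1.23% in Input. In SA:ANH against NS in Input, that setting gave 5 calls in place of 13 and turned the sign of Rpl10 (-0.0147), Rps6 (-0.00928), Rps27a (-0.0414), Rpl9 (-0.0363), Rps13 (-0.0438) and Rpl17 (-0.0173). It also gave 1 call for SA against NS (main 0), 1 for SA:ANH against RES (main 0) and 14 for ANH against RES (main 5), all in Input, and 5 for RES between fractions (main 2).

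Small counts moved most. For ANH against NS in IP the 1 call became 0 with RLE factors, voom, no filter, summed copies, TMM without members or 12 libraries, and 2 with DESeq2. For SA:ANH against SA in IP the 7 became 11 with DESeq2 and 2 with no filter. In Input, ANH against NS gave 2 in place of 1 with RLE factors, DESeq2, voom, summed copies, TMM without members, 12 libraries or the replicate block, and 0 with no filter. RES against NS gave 6 with DESeq2, 5 with voom, 12 libraries or the replicate block, and 1 with no filter (main 3). SA against RES gave 0 with no filter or 12 libraries (main 1). ANH against RES gave 15 with DESeq2, 9 with the block and 1 with no filter or 12 libraries (main 5). Any difference gave 24 with DESeq2 (main 12). Between fractions, ANH gave 0 with voom, no filter or the block (main 1), and RES gave 4 with DESeq2 or voom, 1 with no filter and 5 with the block (main 2). The cause was not tested.

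Leaving out 1 library gave 0 to 4 calls for ANH against NS, 22 to 46 for RES against NS and 2 to 9 for SA:ANH against SA in IP. In Input it gave 3 to 16 for SA:ANH against NS, 0 to 2 for ANH against NS, 0 to 6 for RES against NS, 0 to 1 for SA against RES, 1 to 15 for ANH against RES and 6 to 19 for any difference. The labels do not say that replicate numbers pair the libraries, and they were not treated as pairs. Same-numbered IP and Input libraries correlated above 0.1 in 10 of 30 pairs (-0.0541 to 0.324), and 10 of 30 IP libraries correlated best with their own number. Number 6 gave 0.324 in SA, 0.319 in SA:ANH, 0.248 in ANH, 0.2503 in RES and -0.0541 in NS. Same-numbered libraries of different groups also correlated above 0.1, in 20 of 60 Input pairs (-0.177 to 0.345) and 16 of 60 IP pairs (-0.106 to 0.304). Medians were 0.0635 and 0.0349 there, and 0.0491 for IP with Input. Number 6 gave the highest value of both between-group sets, and also the lowest in IP (RES with NS). For single members, alternatives were counted only over 413 results, each a selected member in 1 comparison, not over every member. Of these alternative values, 2991 kept their side of the threshold and direction, 116 became significant and 59 lost significance. Another 32 changed sign with neither fit passing, and 4 changed sign where the main or the alternative fit passed. This selection leaves out some of the sign turns on summing listed above for SA:ANH Input. Rpl3l and Rpl29 had low counts. For members with many copies, how reads matching several genes were handled is not stated, and its part was not tested.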
